A study of Mus musculus with 12 samples.

Results

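Interferon response genes are the genes that cells switch on when interferons bind their receptors. The 9 listed here are the transcription factors Irf1 and Irf7, the ubiquitin-like modifier Isg15 and its protease Usp18, the antiviral effectors Ifit1, Ifit3, Rsad2 and Oasl2, and the GTPase Gbp2. All 9 were found in the deposited table of 32047 genes by their mouse symbols, and all 9 passed the filter on low counts in every comparison. They were measured by poly(A) RNA sequencing of mouse kidney in 12 libraries, 4 in each of 3 groups. Kidneys of the group AKI_FGF23_R176QR179Q (replicates 1, 2, 3 and 5; the FGF23 mutant group from here on) came from mice that overexpressed the phosphate-regulating hormone FGF23 with the substitutions R176Q and R179Q, and acute kidney injury (AKI) by rhabdomyolysis, the breakdown of skeletal muscle, followed 3 weeks later. The AKI_mcherry group carries the AKI label and the name of the red fluorescent protein mCherry, and the group labelled NC carries neither. The titles of both injured groups also carry the letter A after AKI, which the labels do not explain and which is left out of the names here. The vector and promoter of the overexpression, the strain, age and sex of the mice, the day of kidney collection and the meaning of NC are not given in the labels. AKI_mcherry over NC therefore combines injury with the mCherry construct, and an uninjured group with the FGF23 mutant was not analysed here. No label ties a library to its own animal, so every p-value measures the spread between these samples, which may be technical.

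Type I and type III interferons, made after cells sense foreign or misplaced nucleic acid, and type II interferon, made mainly by T and NK cells, act through paired receptor chains and JAK kinases. The type I and III receptors activate a complex that includes Stat2 and Irf9 and binds interferon-stimulated response elements, while signals of the type II receptor reach gamma-activated sites. In injured kidney, both resident tubular, endothelial and immune cells and arriving leukocytes can respond in this way.

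The labels were checked first. Counts of Fgf23 ran from 320 to 517 per library in the FGF23 mutant group, against 0 counts in all AKI_mcherry and NC libraries. Library totals were 55324078 to 70638283 counts. The 9 kidney-defining markers summed to 7210 to 9080 CPM in the FGF23 mutant group, 4470 to 4810 CPM in AKI_mcherry and 13600 to 15400 CPM in NC, with none at 0 in a group (CPM are counts scaled to library size with TMM factors, a correction for library composition). The 6 tubular injury genes, such as Spp1, Havcr1 and Lcn2, summed to 7200 to 27000 CPM in the FGF23 mutant group, 37000 to 41400 CPM in AKI_mcherry and 948 to 1070 CPM in NC. Most of each of these sums was Spp1, at 5600 to 21300 CPM, 26200 to 30400 CPM and 635 to 786 CPM in the same order of groups. The sums of the groups thus lay apart from each other on both lists. Because whole tissue was sequenced, fewer cells of a type and less RNA per cell cannot be told apart in any value below.

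Few of the 9 genes moved, and not in 1 direction. Isg15 and Irf1 rose and Rsad2 fell in AKI_mcherry over NC, so that 3 of 9 were called where 53.1% of all 18724 genes tested were. Rsad2 rose in the FGF23 mutant group over AKI_mcherry, which makes 1 of 9 called where 23.1% of 18824 genes were. Ifit1, Isg15 and Irf1 rose in the FGF23 mutant group over NC, which makes 3 of 9 called where 42.3% of 19005 genes were. Counted in either direction, the members' share was below that of all genes in each comparison. With 9 genes these shares rest on 1 to 3 calls each, and whether they differ from those of all genes was not tested. The test throughout was edgeR's quasi-likelihood F test across all genes with Benjamini-Hochberg adjustment, called at an adjusted p below 0.05.

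Promoters are shown for the 4 genes that passed in any comparison, since the response elements named above lie there. Of the 9 genes, 8 had a window of 300 bases around the gene's start in RefSeq (build GRCm38.p6), while Usp18 had none. The elements were searched on both strands, as GAAA, any 2 bases and GAAA again for the interferon-stimulated response element (ISRE), and as TTC, any 3 bases and GAA for the gamma-activated site (GAS). Capitals mark the matches, and each sequence runs 5′ to 3′ on the strand of its gene.
Isg15, chr4:156200769-156201068, minus strand: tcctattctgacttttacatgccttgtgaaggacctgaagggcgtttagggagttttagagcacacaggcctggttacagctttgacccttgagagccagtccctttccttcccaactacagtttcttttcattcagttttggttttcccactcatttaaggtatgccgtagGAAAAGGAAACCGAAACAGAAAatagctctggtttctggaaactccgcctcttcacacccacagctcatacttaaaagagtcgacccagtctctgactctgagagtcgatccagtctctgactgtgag
Ifit1, chr19:34640639-34640938, plus strand: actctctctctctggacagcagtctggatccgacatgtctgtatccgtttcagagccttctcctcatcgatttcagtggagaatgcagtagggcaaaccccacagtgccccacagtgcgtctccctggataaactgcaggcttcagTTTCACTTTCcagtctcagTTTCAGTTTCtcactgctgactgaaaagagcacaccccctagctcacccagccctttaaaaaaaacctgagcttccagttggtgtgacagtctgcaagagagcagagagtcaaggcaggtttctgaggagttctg
Rsad2, chr12:26456403-26456702, minus strand: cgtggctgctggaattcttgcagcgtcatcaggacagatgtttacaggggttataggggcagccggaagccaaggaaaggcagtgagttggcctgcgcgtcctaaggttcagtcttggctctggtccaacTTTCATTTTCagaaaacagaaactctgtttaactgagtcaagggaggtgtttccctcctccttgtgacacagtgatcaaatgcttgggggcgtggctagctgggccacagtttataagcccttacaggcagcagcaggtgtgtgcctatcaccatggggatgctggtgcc
Irf1, chr11:53769764-53770063, plus strand: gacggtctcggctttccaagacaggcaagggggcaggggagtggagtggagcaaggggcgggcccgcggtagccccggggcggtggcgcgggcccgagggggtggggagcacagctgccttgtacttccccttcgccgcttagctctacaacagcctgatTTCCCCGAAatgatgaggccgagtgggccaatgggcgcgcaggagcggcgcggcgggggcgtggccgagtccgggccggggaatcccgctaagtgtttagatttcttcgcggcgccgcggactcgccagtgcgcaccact

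In Isg15, 3 ISRE matches overlapped each other, with their leftmost bases 78, 72 and 66 bases before the start. Ifit1 held 2 ISRE matches at 104 and 85 bases before the start, and Rsad2 held 1 at 120 bases. Irf1 held no ISRE match but a GAS match, 90 bases before the start, in this window, and neither match in a second window annotated for it. Of the other members, Ifit3 held 2 ISRE matches at 156 and 122 bases and Gbp2 held 1 at 59 bases, while Oasl2 and Irf7 held neither element. An ISRE match was thus in the window of 5 of the 8 genes with one and a GAS match in 1 of 8, against 3.44% and 8.3% of all 32851 windows. No window of a member held both elements. Genes with an ISRE match were found among those that rose in AKI_mcherry over NC (Isg15), those that fell there (Rsad2) and those that passed in neither direction (Ifit1, Ifit3 and Gbp2). A match describes the letters of a window and no binding.

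**Figure D1:**
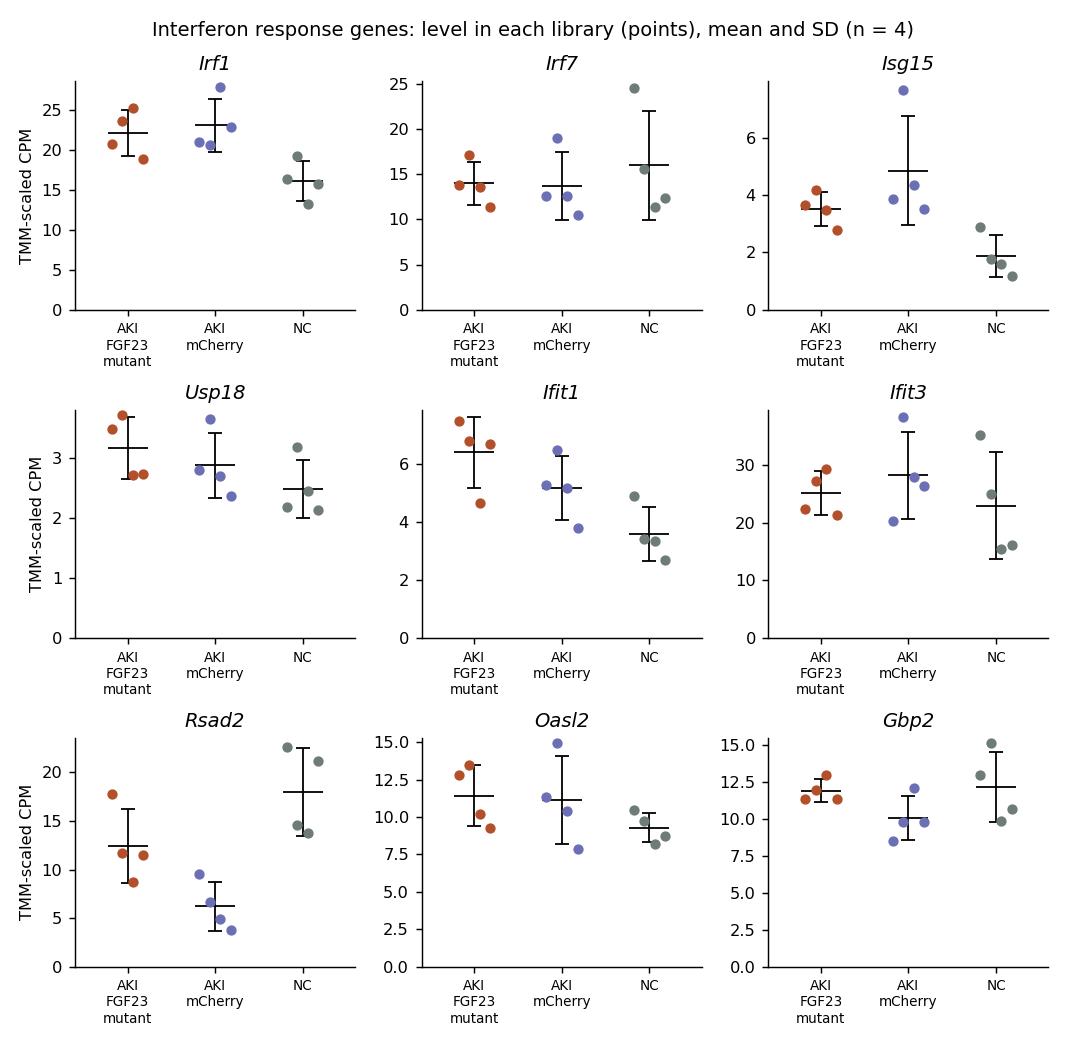
Level of each interferon response gene in each library, as TMM-scaled CPM on a linear axis from 0, for the FGF23 mutant group, AKI_mcherry and NC, with points for libraries and bars for the mean and SD (n = 4). The Rsad2 libraries of AKI_mcherry (3.75 to 9.59 CPM) all lie below those of NC (13.7 to 22.6 CPM), and the Isg15 libraries of AKI_mcherry (3.52 to 7.64 CPM) all lie above those of NC (1.18 to 2.89 CPM).

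Per length of transcript, on the FPKM scale (fragments scaled to transcript length and library size) of the authors' deposited values, Ifit3 stood highest of the 9 in every group, at 15.0 ± 2.17 in the FGF23 mutant group, 14.4 ± 3.07 in AKI_mcherry and 10.8 ± 4.37 in NC (SD, n = 4 each). Usp18 stood lowest in every group, at 1.17 ± 0.193, 0.915 ± 0.119 and 0.725 ± 0.165 FPKM in the same order of groups. The order in between differed. After Ifit3 in the FGF23 mutant group came Irf1 (5.80 ± 0.713 FPKM), Isg15 (5.21 ± 0.831 FPKM) and Gbp2 (4.95 ± 0.300 FPKM), and neighbours in that order differed by less than the larger of their SDs. Next after Ifit3 in NC came Gbp2 (3.98 ± 0.831 FPKM), followed by Irf7, Rsad2 and Irf1 at means of 3.34 to 3.46 FPKM, closer together than their SDs. Isg15 ranked 2 in AKI_mcherry (6.10 ± 1.95 FPKM) but 6 in NC (2.17 ± 0.847 FPKM). Rsad2 ranked 8 in AKI_mcherry (1.29 ± 0.528 FPKM) and 4 in NC (3.41 ± 0.800 FPKM).

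Irf1 is a transcription factor induced by interferon gamma that in turn activates GBP and antigen presentation genes. It was at 20.8, 23.6, 25.2 and 18.8 CPM in the FGF23 mutant group, 20.9, 20.7, 27.9 and 22.9 CPM in AKI_mcherry, and 16.3, 19.2, 13.2 and 15.7 CPM in NC. Every AKI_mcherry library lay above every NC library, and 1 FGF23 mutant library (replicate 5) lay below the highest NC library. Irf1 rose in AKI_mcherry over NC by a log2 fold change of 0.54 ± 0.14 (SE; 1.45-fold, edgeR adjusted p = 0.00794) and in the FGF23 mutant group over NC by 0.47 ± 0.13 (1.39-fold, adjusted p = 0.0145). Between the injured groups it did not pass (-0.06 ± 0.13, adjusted p = 0.772).

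Irf7 is the transcription factor that amplifies type I interferon production. Its values were 13.8, 17.2, 13.6 and 11.4 CPM in the FGF23 mutant group, 12.6, 19.0, 12.6 and 10.5 CPM in AKI_mcherry, and 24.6, 15.6, 11.4 and 12.4 CPM in NC. The groups overlapped throughout, and the highest value of all was NC replicate 1. No comparison passed, with log2 fold changes of -0.20 ± 0.26 for AKI_mcherry over NC, 0.04 ± 0.19 for the FGF23 mutant group over AKI_mcherry and -0.17 ± 0.23 for the FGF23 mutant group over NC (adjusted p = 0.543, 0.913 and 0.585). Irf7 shares its locus with Phrf1 on the other strand, which averaged 36.8 CPM over the 12 libraries. Whether strand was used in counting is not stated, so reads of these overlapping genes may not have been separated.

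Isg15, a small ubiquitin-like protein that is joined to other proteins after interferon exposure, was at 3.64, 4.18, 3.48 and 2.77 CPM in the FGF23 mutant group. In AKI_mcherry it was at 3.86, 7.64, 4.34 and 3.52 CPM, and in NC at 2.89, 1.77, 1.60 and 1.18 CPM. All AKI_mcherry libraries lay above all NC libraries, with replicate 2 far above the other 3. Isg15 rose in AKI_mcherry over NC by 1.40 ± 0.34 on the log2 scale (2.65-fold, adjusted p = 0.00535). Over NC, the FGF23 mutant group had it higher by 0.94 ± 0.28 (1.92-fold, adjusted p = 0.0192), a call that was lost without FGF23 mutant replicate 2 (adjusted p = 0.0552) and without NC replicate 3 (adjusted p = 0.0510). The FGF23 mutant group over AKI_mcherry did not pass (-0.46 ± 0.26, adjusted p = 0.238).

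The library profile of Isg15 was close to that of ribosomal protein genes on the log2(CPM + 1) scale used for likeness below. The summed level of 75 ribosomal protein genes, a list added after the values were seen, was 22196, 23755, 24091 and 21588 CPM in the FGF23 mutant group, 23096, 39659, 31668 and 26950 CPM in AKI_mcherry, and 17444, 13538, 11878 and 13194 CPM in NC. The highest library of AKI_mcherry (replicate 2) and of NC (replicate 1) was the same for this sum and for Isg15. With both of these libraries left out, Isg15, Irf1 and Rsad2 still passed in AKI_mcherry over NC. The ribosomal sums of the remaining libraries also still lay apart, at 23096 to 31668 CPM in AKI_mcherry and 11878 to 13538 CPM in NC. That fit therefore cannot tell Isg15 apart from the ribosomal protein genes. The part of whatever moves ribosomal protein RNA in the Isg15 result was not tested.

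Usp18, the protease that removes Isg15 from proteins and also restrains the type I receptor, was at 2.72 to 3.72 CPM in the FGF23 mutant group, 2.36 to 3.64 CPM in AKI_mcherry and 2.12 to 3.18 CPM in NC. These ranges overlapped, and no comparison passed. Its largest log2 fold change was 0.36 ± 0.21 for the FGF23 mutant group over NC (adjusted p = 0.185).

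Ifit1 and Ifit3 encode related antiviral proteins, of which Ifit1 binds foreign RNA ends. Ifit1 was at 7.49, 6.81, 4.66 and 6.70 CPM in the FGF23 mutant group, 5.28, 6.48, 5.18 and 3.79 CPM in AKI_mcherry, and 4.91, 3.42, 3.33 and 2.70 CPM in NC. The group means stepped down in that order, and neighbouring groups overlapped. Ifit1 rose in the FGF23 mutant group over NC by 0.86 ± 0.22 on the log2 scale (1.81-fold, adjusted p = 0.00946), although 1 library of the mutant group lay below the highest NC library. AKI_mcherry over NC gave 0.55 ± 0.24 (adjusted p = 0.0763) and the FGF23 mutant group over AKI_mcherry gave 0.31 ± 0.21 (adjusted p = 0.307), and neither passed. Ifit1 did pass in AKI_mcherry over NC in 3 of 15 alternatives, under library totals alone, without AKI_mcherry replicate 4 and without NC replicate 1 (lowest adjusted p = 0.0255, range over the alternatives up to 0.185).

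Ifit3 was at 22.4, 27.3, 29.3 and 21.4 CPM in the FGF23 mutant group, 20.2, 38.3, 27.8 and 26.3 CPM in AKI_mcherry, and 35.2, 25.0, 15.4 and 16.1 CPM in NC. The highest libraries, AKI_mcherry replicate 2 and NC replicate 1, came from different groups, and no comparison passed (log2 fold changes of 0.32 ± 0.27, -0.16 ± 0.18 and 0.15 ± 0.24 for AKI_mcherry over NC, the FGF23 mutant group over AKI_mcherry and the FGF23 mutant group over NC). Ifit3 has a near-identical copy, Ifit3b, and reads could have been split between them. Ifit3b itself averaged 10.6 ± 1.74 CPM in the FGF23 mutant group, 9.75 ± 2.08 CPM in AKI_mcherry and 8.45 ± 2.53 CPM in NC, and did not pass either.

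Rsad2 encodes viperin, an enzyme that makes a chain-terminating nucleotide against viral polymerases. It was at 17.8, 11.7, 8.74 and 11.5 CPM in the FGF23 mutant group, 9.59, 6.64, 4.86 and 3.75 CPM in AKI_mcherry, and 22.6, 14.6, 13.7 and 21.1 CPM in NC. All AKI_mcherry libraries lay below all NC libraries, while the FGF23 mutant group lay between the means of the others and overlapped both. Rsad2 fell in AKI_mcherry over NC by 1.52 on the log2 scale (SE 0.29; 2.86-fold lower, adjusted p = 0.00117).

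Rsad2 rose in the FGF23 mutant group over AKI_mcherry by 1.01 ± 0.30 on the log2 scale (2.01-fold, adjusted p = 0.0373). That call was lost in 6 of the 8 fits that leave out 1 library. The adjusted p was 0.113, 0.0711 and 0.0703 without FGF23 mutant replicates 1, 2 and 5, and 0.0685, 0.0835 and 0.0770 without AKI_mcherry replicates 2, 3 and 4. The log2 fold change stayed positive in all 8, at 0.784 to 1.29. The FGF23 mutant group over NC did not pass (-0.51 ± 0.23, adjusted p = 0.0975).

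The gene next to Rsad2 in the mouse genome is Cmpk2, an interferon-induced mitochondrial nucleotide kinase. Cmpk2 was at 11.5, 9.52, 6.43 and 8.48 CPM in the FGF23 mutant group, 4.65, 6.38, 6.27 and 4.61 CPM in AKI_mcherry, and 15.1, 16.5, 11.3 and 15.8 CPM in NC. The order of the groups was that of Rsad2. Cmpk2 fell in AKI_mcherry over NC by 1.40 on the log2 scale (SE 0.18, adjusted p = 7.72e-05), rose in the FGF23 mutant group over AKI_mcherry by 0.72 ± 0.21 (adjusted p = 0.0311) and fell in the FGF23 mutant group over NC by 0.69 (SE 0.18, adjusted p = 0.0116). The middle call was lost in 5 of 8 fits without 1 library (FGF23 mutant replicates 1, 2 and 5, AKI_mcherry replicates 1 and 4), with an adjusted p of up to 0.0986.

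Oasl2, which resembles the oligoadenylate synthetases that sense double-stranded RNA, was at 9.25 to 13.5 CPM in the FGF23 mutant group, 7.89 to 14.9 CPM in AKI_mcherry and 8.22 to 10.4 CPM in NC. The groups overlapped and no comparison passed. The FGF23 mutant group over NC came nearest, at 0.32 ± 0.15 on the log2 scale (adjusted p = 0.109).

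Gbp2, a guanylate-binding protein that coats pathogen vacuoles and is induced mainly by interferon gamma, was at 11.4, 12, 13.0 and 11.3 CPM in the FGF23 mutant group. It was at 8.52, 9.80, 12.1 and 9.81 CPM in AKI_mcherry and 13.0, 15.2, 9.89 and 10.7 CPM in NC. Only AKI_mcherry replicate 3 reached the lowest library of the FGF23 mutant group, yet the difference did not pass (0.25 ± 0.13 on the log2 scale, adjusted p = 0.207). AKI_mcherry over NC gave -0.26 ± 0.17 (adjusted p = 0.226) and the FGF23 mutant group over NC gave -0.01 ± 0.14 (adjusted p = 0.958).

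**Figure D2:**
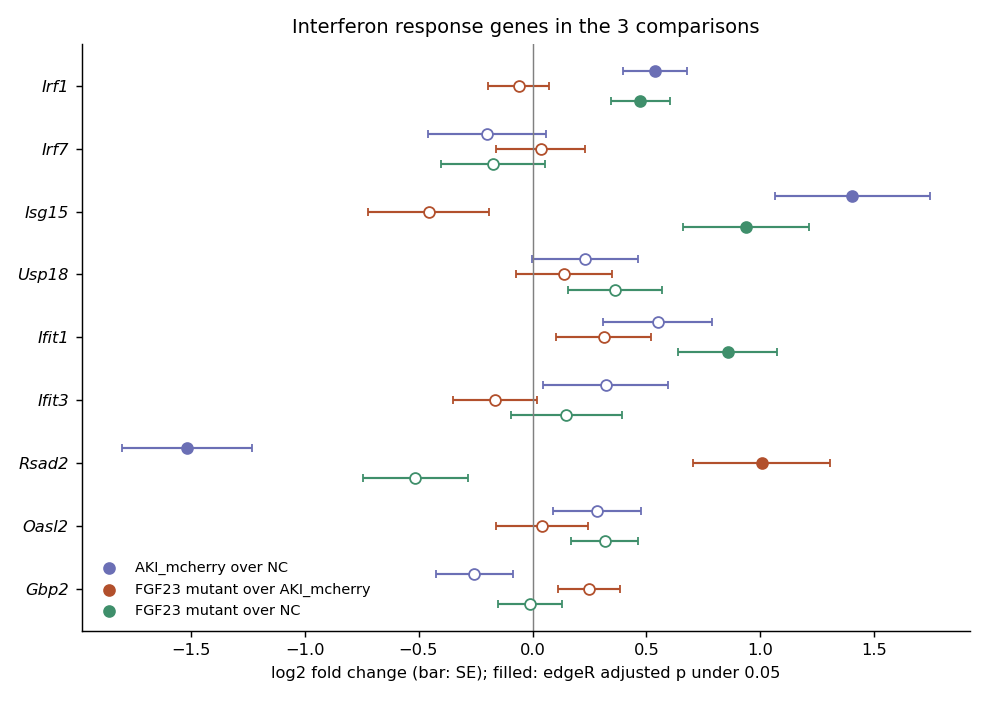
Log2 fold changes of the 9 interferon response genes with their SE in the 3 comparisons, where filled points passed the test. Rsad2 lies furthest from 0, at -1.52 in AKI_mcherry over NC and 1.01 in the FGF23 mutant group over AKI_mcherry, and most other points lie within 0.5 of 0.

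By direction, 2 of 9 members rose (22.2%) and 1 fell (11.1%) in AKI_mcherry over NC, where 27.2% of genes rose and 26% fell. For the FGF23 mutant group over AKI_mcherry, 1 of 9 rose (11.1%) and none fell, where 11.7% of genes rose and 11.4% fell. For the FGF23 mutant group over NC, 3 of 9 rose (33.3%) and none fell, where 21.7% of genes rose and 20.6% fell. The median log2 fold change of the members was 0.28, 0.04 and 0.32 in these comparisons, beside medians of 0.00, 0.01 and 0.01 over all genes tested. Groups did not overlap for 3 of 9 members in AKI_mcherry over NC, where that held for 51.5% of genes. They overlapped for all 9 in the FGF23 mutant group over AKI_mcherry and over NC, where 28.4% and 41.6% of genes did not overlap. AKI_mcherry is shared by the first pair of comparisons and NC by AKI_mcherry over NC and the FGF23 mutant group over NC, so these values are not independent.

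Members also varied within groups. AKI_mcherry replicate 2 had the highest value of its group for 6 of the 9 genes and replicate 4 the lowest for 6. In NC, replicate 1 was highest for 6 genes and replicate 3 lowest for 6, and in the FGF23 mutant group replicate 5 was lowest for 6. Spread was widest for Rsad2 in AKI_mcherry, where the highest library had 2.56 times the lowest, and narrowest for Gbp2 in the FGF23 mutant group, at 1.15 times. Ifit3, Isg15 and Irf7 in NC each spanned more than a doubling, at 2.29, 2.46 and 2.16 times.

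**Figure D3:**
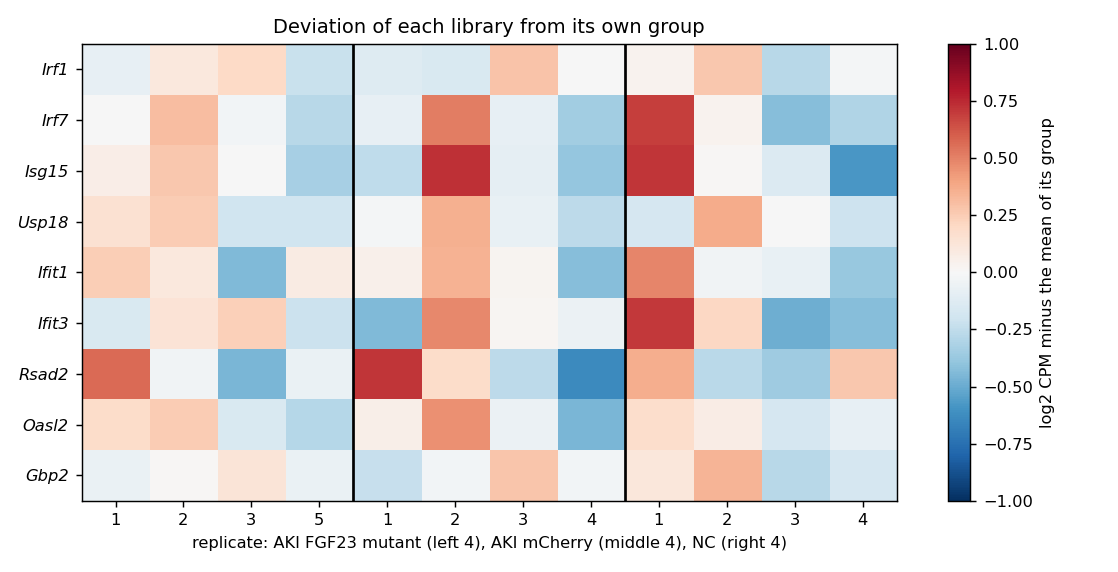
Deviation of each library (columns, the FGF23 mutant group at left, AKI_mcherry in the middle and NC at right) from the mean log2 CPM of its own group, for each member (rows), with red for above and blue for below. AKI_mcherry replicate 2 and NC replicate 1 are above their group's mean for most members, led by Isg15, Irf7 and Ifit3.

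The genes whose profile over the 12 libraries was nearest to each member were found by the root mean square difference of centred log2(CPM + 1) among 13314 genes. Isg15 was nearest to the ribosomal protein genes Rps2 (difference 0.149) and Rpl19 (0.150), where Isg15 itself varied by 0.512 about its mean. The added 1 shrinks the differences of Isg15, at 1.18 to 7.64 CPM, more than those of the far higher Rps2 and Rpl19. How near they are in size thus depends on it. Rsad2 was nearest to Synpo2 (0.180) and Igfbp5 (0.250), against a variation of 0.695 of its own. Igfbp5 was at 265 ± 45.2 CPM in the FGF23 mutant group, 140 ± 20.4 CPM in AKI_mcherry and 371 ± 57.3 CPM in NC, the same order of groups as Rsad2. For the others the nearest genes were Dus4l (0.150) to Ifit1, Clec2d (0.143) to Ifit3, Rnf113a2 (0.104) to Irf1, Cst3 (0.158) to Irf7, P4htm (0.0816) to Oasl2, Rnf31 (0.122) to Usp18 and Abhd12 (0.0991) to Gbp2. Among the members themselves, Oasl2 and Usp18 were nearest to each other (0.144). These distances describe 12 libraries in 3 groups and are dominated by the differences between groups where a gene has any.

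Of 11 interferon genes looked for, 4 had a row in the table (Ifnb1, Ifnk, Ifng and Ifnl3), and the others were not analysed here. Those 4 had few counts. Ifnb1 had 0 to 4 counts per library in the FGF23 mutant group and 0 counts in AKI_mcherry and NC, and Ifng had 0 counts in the FGF23 mutant group, at most 4 per library in AKI_mcherry and at most 12 in NC. Ifnk reached 4 counts in NC and Ifnl3 2 counts in the FGF23 mutant group. None of the 4 passed the filter on low counts, so edgeR's test was not run on them there, and with no filter or with DESeq2, where 2 to 4 of them could be tested, 0 were called. Each had counts in at most 2 libraries of a group, too few for a call, so nothing is concluded from that outcome. At 3 counts, the limit that a count of 0 allows was 0.038 to 0.0601 CPM per library, for counting error only.

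Of 6 receptor subunit genes, 4 rose in AKI_mcherry over NC (66.7%, where 27.2% of all genes rose) and none fell. Ifngr2, the signalling chain of the interferon gamma receptor, was at 31.9, 39.6, 34.9 and 39.2 CPM in the FGF23 mutant group, 62.4, 57.5, 55.5 and 60.0 CPM in AKI_mcherry, and 23.3, 22.6, 19.8 and 18.7 CPM in NC, with no overlap between any groups. It rose by 1.5 ± 0.10 on the log2 scale in AKI_mcherry over NC (2.83-fold, adjusted p = 1.04e-06) and fell by 0.69 (SE 0.10, adjusted p = 0.00153) in the FGF23 mutant group over AKI_mcherry. Ifnlr1, the receptor chain for lambda interferons, was also highest in AKI_mcherry, while its FGF23 mutant and NC libraries overlapped, at 4.61 ± 0.750 CPM in the FGF23 mutant group, 7.89 ± 0.693 CPM in AKI_mcherry and 4.52 ± 0.820 CPM in NC (0.82 ± 0.17, adjusted p = 0.00233 for AKI_mcherry over NC, and -0.77 ± 0.17, adjusted p = 0.0102 for the FGF23 mutant group over AKI_mcherry). Ifngr1 and the type I receptor chain Ifnar1 rose in AKI_mcherry over NC by 0.54 ± 0.11 (adjusted p = 0.00199) and 0.50 ± 0.09 (adjusted p = 0.000828), and neither Ifnar2 (0.02 ± 0.11, adjusted p = 0.890) nor Il10rb, which lambda interferon and interleukin-10 receptors share (-0.16 ± 0.11, adjusted p = 0.218), passed there. Between the injured groups, Ifngr2 and Ifnlr1 were the members of this list that passed, both downward, where 11.4% of all genes fell. In the FGF23 mutant group over NC 4 of 6 rose (66.7%, where 21.7% of all genes did) and none fell. Leaving out 1 library left 3 or 4 of the 6 higher, and Ifnar2 kept its call in 3 of 8 such fits (adjusted p of up to 0.09). With replicate number as a block, 1 of the 6 was higher.

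Of the 13 JAK, STAT and IRF genes outside the 9 members, 4 rose and 4 fell in AKI_mcherry over NC (30.8% each, near the 27.2% and 26% of all genes). Irf9, the DNA-binding part of the type I interferon complex, rose in AKI_mcherry over NC (0.51 ± 0.14, adjusted p = 0.0122) and in the FGF23 mutant group over NC (0.49 ± 0.10, adjusted p = 0.00302). Stat2, its partner in that complex, was at 22.7 ± 1.70 CPM in the FGF23 mutant group, 19.2 ± 1.25 CPM in AKI_mcherry and 18.5 ± 2.49 CPM in NC. Its call in the FGF23 mutant group over NC (0.31 ± 0.11, adjusted p = 0.0458) was lost in every one of the 8 fits without 1 library, with an adjusted p of up to 0.114. The kinase Jak2 fell in AKI_mcherry over NC (-0.44 ± 0.11, adjusted p = 0.00525), Jak1 rose (0.34 ± 0.13, adjusted p = 0.0430) with overlapping groups, and Tyk2 did not pass (-0.02 ± 0.10, adjusted p = 0.892). The Jak1 call was lost in 7 of 8 fits without 1 library (adjusted p of up to 0.115), all but that without AKI_mcherry replicate 3. Stat3, which serves interleukin-6 more than interferon, rose by 1.85 ± 0.10 (3.60-fold, adjusted p = 1.86e-07) in AKI_mcherry over NC, and Irf5 fell by 1.04 (SE 0.19, adjusted p = 0.000825).

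Among sensors of nucleic acid and their adaptors, 5 of 16 rose in AKI_mcherry over NC (31.2%, near the 27.2% of all genes) and none fell, where 26% of all genes did. Of these 5, Ikbke lost its call without AKI_mcherry replicates 2 or 3 or NC replicates 1, 3 or 4 (adjusted p of up to 0.0852), and Ticam1 without AKI_mcherry replicate 3 or NC replicate 2 (adjusted p of up to 0.0542). For the FGF23 mutant group over NC, 6 of 16 rose (37.5%, where 21.7% of all genes did) and none fell. Leaving out 1 library left 4 to 6 of the 16 higher. Cgas kept its call there in 3 of 8 such fits (adjusted p of up to 0.116) and Ticam1 in 2 of 8 (adjusted p of up to 0.141). Sting1, the adaptor that signals cytosolic DNA, was at 9.20, 24.6, 28.2 and 17.0 CPM in the FGF23 mutant group, 24.8, 27.2, 32.0 and 25.7 CPM in AKI_mcherry, and 3.38, 3.02, 2.09 and 3.38 CPM in NC. Both injured groups lay above NC without overlap, at log2 fold changes over NC of 3.23 ± 0.17 in AKI_mcherry (9.37-fold, adjusted p = 2.03e-07) and 2.75 ± 0.32 in the FGF23 mutant group (6.73-fold, adjusted p = 7.53e-05). Myd88, an adaptor of Toll-like receptors, rose by 1.49 ± 0.11 (adjusted p = 1.90e-06) and Rigi, which senses RNA, by 0.66 ± 0.13 (adjusted p = 0.00164) in AKI_mcherry over NC. Between the injured groups 1 of 16 passed, a share below the 23.1% of all genes. Ifih1, another RNA sensor, rose by 0.56 ± 0.15 (adjusted p = 0.0229). Its call was lost without FGF23 mutant replicates 1, 2 or 5 or AKI_mcherry replicates 2 or 3 (adjusted p of up to 0.0692).

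**Figure D4:**
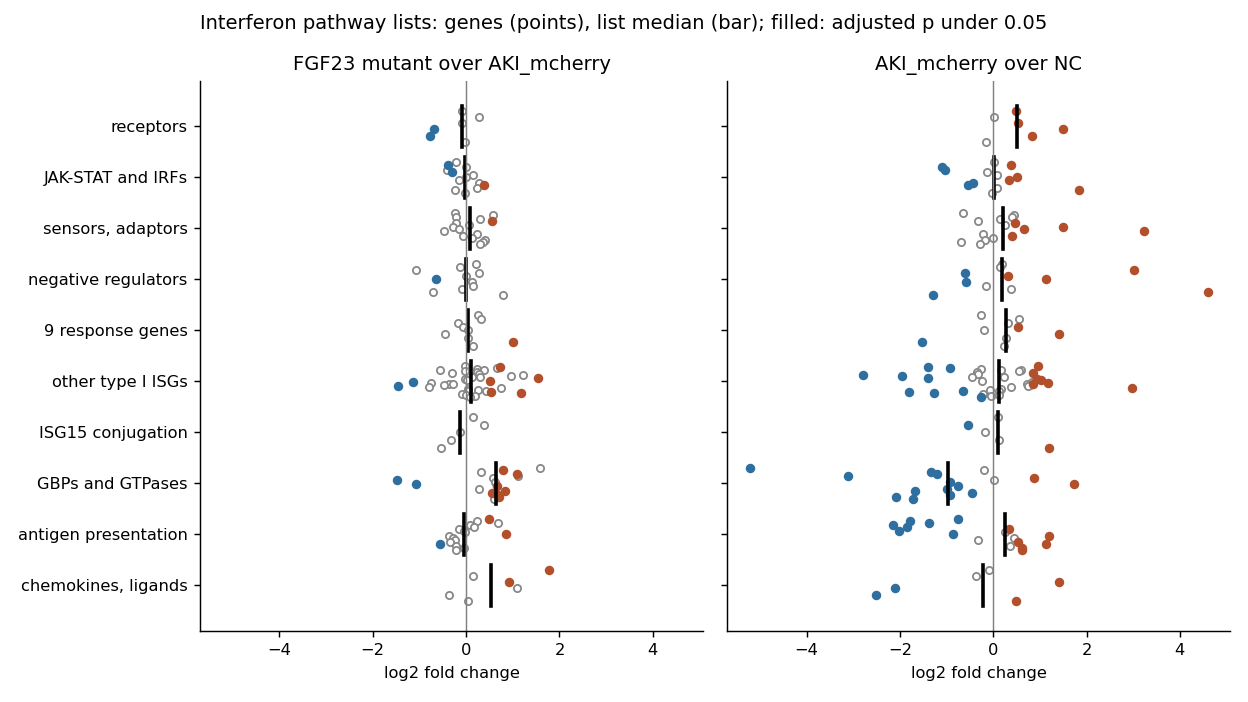
Log2 fold changes of the genes of each interferon pathway list, for the FGF23 mutant group over AKI_mcherry (left) and AKI_mcherry over NC (right), with red for rose, blue for fell, open for not passed and a bar for the list's median. The GBPs and GTPases have a median of 0.64 at left and -0.96 at right.

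Of 36 type I interferon-stimulated genes beyond the members, 7 rose and 9 fell in AKI_mcherry over NC (19.4% and 25%, where 27.2% and 26% of all genes did). For the FGF23 mutant group over AKI_mcherry, 5 rose and 2 fell (13.9% and 5.56%, where 11.7% and 11.4% of all genes did), and over NC 6 rose and 3 fell (16.7% and 8.33%, where 21.7% and 20.6% of all genes did). These shares were near or below those of all genes. Their median log2 fold changes were 0.12, 0.10 and 0.12. Of the 5 that rose in the FGF23 mutant group over AKI_mcherry, the count was 1 without FGF23 mutant replicate 1, 2 without FGF23 mutant replicate 2, AKI_mcherry replicate 1 or AKI_mcherry replicate 4, and 3 without FGF23 mutant replicate 5, and the 2 that fell were 0 or 1 without any 1 library. Oasl1, an inhibitor of Irf7 translation in mouse, was at 40.1, 24, 16.2 and 24.4 CPM in the FGF23 mutant group, 14.8, 11.0, 25.6 and 11.3 CPM in AKI_mcherry, and 1.88, 2.54, 1.63 and 1.96 CPM in NC. It rose over NC by 2.98 ± 0.29 in AKI_mcherry (7.90-fold, adjusted p = 1.19e-05) and by 3.73 ± 0.28 in the FGF23 mutant group (13.2-fold, adjusted p = 3.95e-06). Its near relative Oasl2 did not pass in either comparison, as given above. The membrane protein Ifitm3, which blocks viral entry, rose by 1.02 ± 0.27 in AKI_mcherry over NC (adjusted p = 0.00931, groups overlapping) and by 1.02 ± 0.20 in the FGF23 mutant group over NC (adjusted p = 0.00189). Mx2, an antiviral GTPase, rose in AKI_mcherry over NC (1.17 ± 0.30, adjusted p = 0.00667).

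Those that fell in AKI_mcherry over NC were led by the Ifit relatives Ifit1bl1 (0.980 ± 0.502 CPM in the FGF23 mutant group, 0.417 ± 0.199 CPM in AKI_mcherry and 2.98 ± 0.408 CPM in NC; -2.80 ± 0.37, adjusted p = 0.000116) and Ifit1bl2 (-1.96 ± 0.52, adjusted p = 0.00874), and by Samd9l, a translation inhibitor (-1.80 ± 0.13, adjusted p = 1.94e-06). Slfn5, a Schlafen family gene, was at 29.0, 25.0, 18 and 22.8 CPM in the FGF23 mutant group, 11.9, 12.2, 9.37 and 8.23 CPM in AKI_mcherry, and 30.0, 25.0, 21.0 and 26.1 CPM in NC. It lay without overlap below both other groups in AKI_mcherry, and rose by 1.19 ± 0.18 (2.28-fold, adjusted p = 0.00209) in the FGF23 mutant group over AKI_mcherry, a call kept in all 8 fits without 1 library. Ifitm1 (1.53 ± 0.41, adjusted p = 0.0234) and Oas2 (-1.46 ± 0.44, adjusted p = 0.0390) also passed there, and neither call was firm. Ifitm1 was lost without FGF23 mutant replicates 1 or 2 or AKI_mcherry replicates 1, 3 or 4 (adjusted p of up to 0.0687). Oas2 was lost without any of the 4 FGF23 mutant libraries and without AKI_mcherry replicates 2 or 3 (adjusted p of up to 0.101). Oas genes are similar to each other in sequence, so their counts are less certain.

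Enzymes that attach Isg15 to its targets passed in few cases. In AKI_mcherry over NC 1 of 5 rose and 1 fell (20% each, below the 27.2% and 26% of all genes). Ube2l6, the conjugating enzyme, was at 7.64 ± 1.47 CPM in the FGF23 mutant group, 11.1 ± 2.45 CPM in AKI_mcherry and 4.92 ± 1.40 CPM in NC, and rose in AKI_mcherry over NC by 1.19 ± 0.23 (2.28-fold, adjusted p = 0.00154). The ligase Herc6 fell there (-0.55 ± 0.17, adjusted p = 0.0222), a call lost without AKI_mcherry replicates 2 or 3 or NC replicates 2 or 3 (adjusted p of up to 0.0653). For the FGF23 mutant group over AKI_mcherry, edgeR gave the 5 adjusted p of 0.0761 (Ube2l6, -0.53 ± 0.20) and more.

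The guanylate-binding proteins (GBPs) and interferon-inducible GTPases are the family of Gbp2 that guards cells against intracellular microbes and mostly fell in AKI_mcherry over NC. Without Gbp2, 12 of 16 fell (75%, where 26% of all genes did) and 2 rose (12.5%, where 27.2% did). Their median log2 fold change was -0.96. For the FGF23 mutant group over AKI_mcherry, 7 of 16 rose (43.8%, where 11.7% of all genes did) and 2 fell, where 11.4% did. The median was 0.64. Over NC, the FGF23 mutant group had 8 lower and 3 higher, where 20.6% and 21.7% of all genes were, and a median of -0.52. All 14 calls of AKI_mcherry over NC were kept in each of the 8 fits without 1 library.

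Gbp10 was at 0.342, 0.129, 0.324 and 0.239 CPM in the FGF23 mutant group, 0.0351, 0, 0.206 and 0.0892 CPM in AKI_mcherry, and 2.85, 3.12, 3.92 and 3.24 CPM in NC. It fell in AKI_mcherry over NC by 5.21 on the log2 scale (SE 0.62, adjusted p = 5.36e-05), with several AKI_mcherry libraries near the limit of detection. Gbp6, a near copy of Gbp10 with which reads may be shared, fell by 3.12 (SE 0.31; 8.68-fold lower, adjusted p = 1.42e-05), at 2.73 ± 1.08 CPM in the FGF23 mutant group, 1.28 ± 0.423 CPM in AKI_mcherry and 11.2 ± 3.49 CPM in NC. Tgtp1, a T cell-specific GTPase in name that also has a near copy, fell by 2.08 (SE 0.24, adjusted p = 4.36e-05). Against this trend Gbp7 rose by 0.87 ± 0.20 (adjusted p = 0.00404) and Gvin1, a very large GTPase, by 1.74 ± 0.21 (adjusted p = 5.67e-05).

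Among the genes that rose in the FGF23 mutant group over AKI_mcherry, Gbp5, which promotes inflammasome assembly, was at 3.56, 2.53, 2.83 and 2.6 CPM in the FGF23 mutant group, 1.67, 1.22, 1.42 and 1.07 CPM in AKI_mcherry, and 3.29, 3.44, 2.81 and 3.01 CPM in NC. The FGF23 mutant libraries all lay above those of AKI_mcherry and overlapped NC. Gbp5 rose there by 1.1 ± 0.23 (2.14-fold, adjusted p = 0.00906) and Gbp3 by 0.79 ± 0.18 (adjusted p = 0.0139), and both calls held without any 1 library. The immunity-related GTPase Iigp1 rose by 0.83 ± 0.23 (adjusted p = 0.0256), a call lost without FGF23 mutant replicates 1 or 2 or AKI_mcherry replicates 2 or 3 (adjusted p of up to 0.0767). Gvin1 fell by 1.06 (SE 0.22, adjusted p = 0.00871). Leaving out 1 library left 4 to 9 of the 16 higher, with 4 without FGF23 mutant replicate 2 or AKI_mcherry replicate 2. With replicate number as a block, on replicates 1 to 3 of both groups, 1 of the 16 was higher and 0 were lower. The median in that fit was 0.647.

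Endothelial and T cell markers were read beside the GBPs, since both cell types express them. The 9 endothelial markers summed to 437 to 563 CPM in the FGF23 mutant group, 243 to 381 CPM in AKI_mcherry and 361 to 486 CPM in NC. Of them 3 fell and none rose in AKI_mcherry over NC, where 26% of all genes fell and 27.2% rose. For the FGF23 mutant group over AKI_mcherry, 5 rose and none fell, where 11.7% of all genes rose and 11.4% fell. Tek rose there by 1.35 ± 0.17 (adjusted p = 0.000867). The 12 T and NK cell markers summed to 3.11 to 6.52 CPM in the FGF23 mutant group, 3.08 to 6.48 CPM in AKI_mcherry, with Gzma and Ncr1 at 0, and 5.31 to 8.50 CPM in NC. The part of these cells in the GBP result was not tested.

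**Figure D5:**
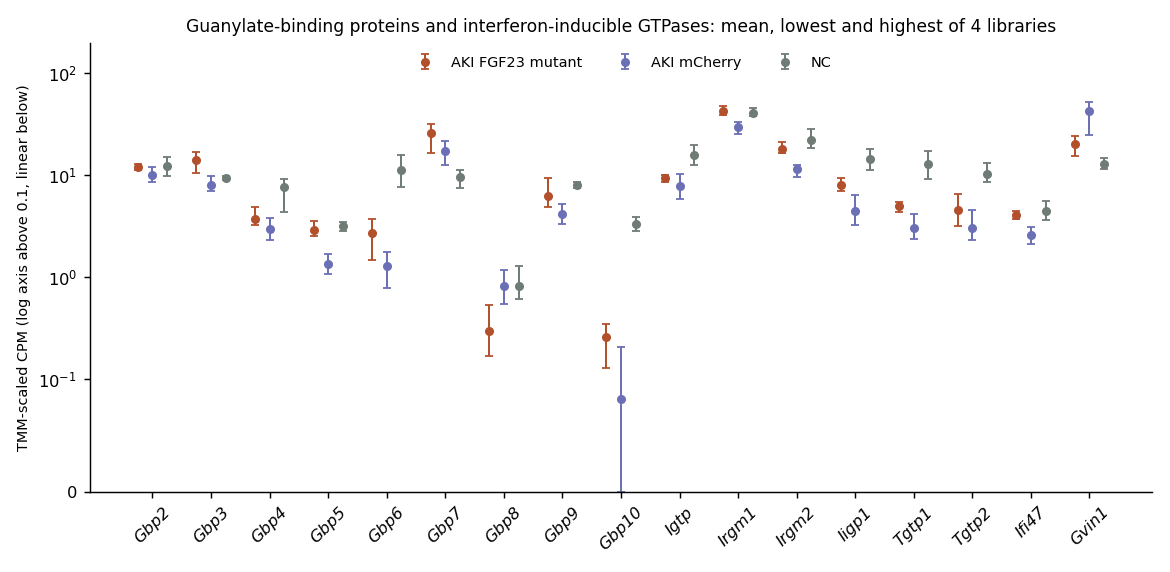
Mean level of each guanylate-binding protein and interferon-inducible GTPase gene, as TMM-scaled CPM on a log axis (linear below 0.1), in the FGF23 mutant group, AKI_mcherry and NC, with bars from the lowest to the highest of 4 libraries. Gbp6, Gbp10, Tgtp1 and Iigp1 are highest in NC, while Gbp7 is highest in the FGF23 mutant group and Gvin1 in AKI_mcherry.

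Antigen presentation genes moved in both directions, 6 of 17 higher and 7 lower in AKI_mcherry over NC (35.3% and 41.2%, where 27.2% and 26% of all genes were). Those that rose included the immunoproteasome subunit Psmb10 (20.8 ± 4.61 CPM in the FGF23 mutant group, 27.0 ± 6.73 CPM in AKI_mcherry and 11.9 ± 2.05 CPM in NC; 1.2 ± 0.19, adjusted p = 0.000353), the proteasome activator Psme2 (1.13 ± 0.22, adjusted p = 0.00144) and the peptide transporter Tap2 (0.62 ± 0.10, adjusted p = 0.000501). Those that fell included the class I light chain B2m (-0.75 ± 0.12, adjusted p = 0.000445) and the class II chains H2-Aa (-2.14 ± 0.29, adjusted p = 0.000140), H2-Eb1 (-2.02 ± 0.30, adjusted p = 0.000244) and H2-Ab1 (-1.85 ± 0.19, adjusted p = 2.13e-05). H2-Ab1 was at 22.3, 22.6, 24.3 and 16 CPM in the FGF23 mutant group, 21.6, 25.2, 13.6 and 16 CPM in AKI_mcherry, and 80.9, 74.1, 62.3 and 62.0 CPM in NC. Both injured groups lay below NC and overlapped each other, and the class II genes named did not pass in the FGF23 mutant group over AKI_mcherry. There the class I activator Nlrc5 (0.87 ± 0.26, adjusted p = 0.0372) and B2m (0.49 ± 0.13, adjusted p = 0.0216) rose and Psme2 fell (-0.56 ± 0.18, adjusted p = 0.0436), 3 of 17 in all (11.8% higher and 5.88% lower, where 11.7% and 11.4% of all genes were). B2m lost its call without FGF23 mutant replicates 1 or 2 or AKI_mcherry replicate 4 (adjusted p of up to 0.0654). Nlrc5 lost it without any of the 4 FGF23 mutant libraries and without AKI_mcherry replicates 2 or 4 (adjusted p of up to 0.107). Psme2 lost it without FGF23 mutant replicates 1, 2 or 5 or AKI_mcherry replicates 2, 3 or 4 (adjusted p of up to 0.118).

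Markers of the cells that carry class II molecules moved unevenly. The 12 macrophage and monocyte markers summed to 117 to 166 CPM in the FGF23 mutant group, 120 to 282 CPM in AKI_mcherry and 154 to 214 CPM in NC. In AKI_mcherry over NC the lysosomal marker Cd68 rose by 3.95 ± 0.31 (adjusted p = 2.78e-06) while the receptor Csf1r fell by 1.73 (SE 0.14, adjusted p = 2.82e-06). The 8 dendritic cell markers summed to 48.6 to 58.3 CPM in the FGF23 mutant group, 40.1 to 55.9 CPM in AKI_mcherry and 41.4 to 50.5 CPM in NC. Most of each of these sums was Bst2 (8.74 to 31.4 CPM per library) and Tcf4 (14.4 to 24.3 CPM). Flt3 and Xcr1 reached at most 1.05 and 1.14 CPM, so the sums say little about them. In AKI_mcherry over NC, 4 of the 7 tested fell, where 26% of all genes did, with Clec9a at -1.33 ± 0.47 (adjusted p = 0.0345). Bst2, which many cell types induce with interferon, rose there (0.96 ± 0.24, adjusted p = 0.00678). The Clec9a call was lost without AKI_mcherry replicates 2 or 4 or NC replicates 3 or 4 (adjusted p of up to 0.0926), and that of Tcf4 without any 1 library other than AKI_mcherry replicate 1 (adjusted p of up to 0.124). The part of cell composition in the class II result was not tested.

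Of 6 interferon-induced chemokines and ligands tested, 2 rose and 2 fell in AKI_mcherry over NC (33.3% each, where 27.2% and 26% of all genes did). Cxcl10, which attracts T cells, was at 23.7, 18.9, 14.2 and 18.1 CPM in the FGF23 mutant group, 10.8, 11.3, 9.99 and 7.76 CPM in AKI_mcherry, and 2.37, 5.44, 3.97 and 3.41 CPM in NC. The 3 groups did not overlap. Cxcl10 rose by 1.41 ± 0.25 in AKI_mcherry over NC (2.66-fold, adjusted p = 0.000761), by 0.91 ± 0.17 in the FGF23 mutant group over AKI_mcherry (1.88-fold, adjusted p = 0.00625) and by 2.32 ± 0.25 in the FGF23 mutant group over NC (4.98-fold, adjusted p = 3.96e-05). Its sister Cxcl9, at 0.322 ± 0.306 CPM in the FGF23 mutant group, 0.420 ± 0.0932 CPM in AKI_mcherry and 2.42 ± 1.05 CPM in NC, fell in AKI_mcherry over NC (-2.50 ± 0.40, adjusted p = 0.000393). Ccl5, also called RANTES, was at 2.83, 5.71, 3.22 and 2.37 CPM in the FGF23 mutant group, 0.666, 1.52, 0.839 and 1.09 CPM in AKI_mcherry, and 1.12, 0.825, 0.408 and 2.06 CPM in NC. It rose by 1.79 ± 0.35 in the FGF23 mutant group over AKI_mcherry (3.45-fold, adjusted p = 0.00720). Both Cxcl10 and Ccl5 kept that call in all 8 fits without 1 library.

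Negative regulators gave 4 higher and 3 lower of 11 in AKI_mcherry over NC (36.4% and 27.3%, near the 27.2% and 26% of all genes). Socs3, a feedback inhibitor of cytokine receptors that acts mainly downstream of Stat3, was at 23.7, 39.4, 70 and 43.3 CPM in the FGF23 mutant group, 56.1, 78.2, 84.7 and 71.3 CPM in AKI_mcherry, and 3.49, 3.18, 3.27 and 2.25 CPM in NC. It rose in AKI_mcherry over NC by 4.59 ± 0.18 (24.1-fold, adjusted p = 5.20e-08), while Socs1, the inhibitor closest to the interferon receptors, did not pass (0.39 ± 0.34, adjusted p = 0.362). Isg20, an exonuclease of RNA listed here though it is itself induced by interferon, rose by 3.03 ± 0.28 (8.15-fold, adjusted p = 8.60e-06). The phosphatase Ptpn2, which restrains JAK kinases, was at 24.6 ± 3.76 CPM in the FGF23 mutant group, 38.7 ± 3.47 CPM in AKI_mcherry and 17.9 ± 1.82 CPM in NC. It was the gene of this list that passed in the FGF23 mutant group over AKI_mcherry (-0.65 ± 0.12, adjusted p = 0.00561), where 11.4% of all genes fell.

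Across these lists outside the members, 57 of 73 calls in AKI_mcherry over NC, 12 of 28 in the FGF23 mutant group over AKI_mcherry and 44 of 56 in the FGF23 mutant group over NC were kept in every fit without 1 library. Leaving out FGF23 mutant replicate 1 or replicate 2 each lost 15 of the 28 calls in the FGF23 mutant group over AKI_mcherry, and leaving out AKI_mcherry replicate 4 lost 11. Numbers of calls between these comparisons are not set against each other, since they share libraries.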

How the data were processed

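The 12 mouse kidney libraries were grouped by their titles, 4 to a group. Per the labels' protocols, poly(A) RNA was made into strand-marked libraries with dUTP and sequenced as read pairs. The genome build GRCm39 and the tools edgeR, fastp and StringTie are listed, without roles, per the submitters' processing notes. The sources used here give no versions, aligner, annotation or strand setting for the counting. The authors deposited a count and an FPKM value per gene, per the file headers. Symbols were paired with 31942 of 32047 gene identifiers from a supplied annotation, and 105 had none. Coordinates and promoters come from RefSeq on GRCm38.p6, another build than the authors', and gene overlaps from an annotation of that older build.

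Counts were tested with edgeR 4.0.16 in R 4.3.3 (TMM factors, filterByExpr, quasi-likelihood F test, two-sided, Benjamini-Hochberg adjustment over all genes, threshold 0.05), each comparison on its own 8 libraries. CPM use TMM factors over the 12 libraries, which were 1.12 to 1.15 for FGF23 mutant libraries, 0.903 to 1.02 for AKI_mcherry and 0.879 to 0.911 for NC. FPKM served only to compare levels between genes.

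Library totals were 55324078 to 70638283 counts. The value 4 is found 11995 times in the count table, 3 is found 5847 times and 5 is found 3638 times, so counts are not taken as independent molecules, and limits at 3 counts cover counting error only. Libraries of a group differed beyond sampling noise, so none was counted as a duplicate.

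The 9 members and the pathway and marker lists were chosen with earlier results of these data known. Named beside the members are the interferon receptors, JAK, STAT and Irf9 genes, and from each list in each comparison, up to 3 called genes each way, those of largest fold change with a mean of at least 1 CPM. Ifit3b, Socs1, Ikbke, Ticam1, Il10rb and the ribosomal protein genes were named after their values were seen. One gene of the named set is not reported here.

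The alternatives were DESeq2 1.42.0, scaling by RLE factors or by library totals only, testing without the low-count filter, a fit of all 12 libraries together, a block for replicate number, and leaving out each library. Leaving out AKI_mcherry replicate 2 and NC replicate 1 together was added after seeing the data. Tables and plots were made with Python 3.11.15 and matplotlib 3.10.9.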

Additional observations from a re-analysis of the deposited data

Results flagged for a closer look

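Among 57 groups of 4 libraries (19 genes, the members and the receptors, kinases, STAT genes and Irf9, in 3 groups), 2 held a library far from the other 3, by the 95% critical value of Dixon's test on the gap to the nearest library. Chance alone gives about 1 in 20 such groups. Stat2 stood at 25.2 CPM in replicate 1 of the FGF23 mutant group, where the other 3 libraries had 21.5 to 22.1 CPM. Tyk2 stood at 20.2 CPM in replicate 1 of NC, where the other 3 libraries had 24.2 to 24.7 CPM. Neither gene is one of the 9 interferon response genes.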

How the results depend on the processing

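In AKI_mcherry over NC, the calls of Isg15, Irf1 and Rsad2 were kept under all 15 alternatives. In the FGF23 mutant group over AKI_mcherry, Rsad2 was kept under 7 of 14 (adjusted p of 0.00427 to 0.113) and lost with no filter on low counts and in 6 fits without 1 library. In the FGF23 mutant group over NC, Ifit1 and Irf1 were kept under 13 of 14 and Isg15 under 11 of 14.

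Scaling by library totals alone moved the median log2 fold change of all genes to 0.12 in AKI_mcherry over NC, 0.21 in the FGF23 mutant group over AKI_mcherry and 0.34 in the FGF23 mutant group over NC, and 59.6%, 79.7% and 78.9% of calls were then upward (51.2%, 50.6% and 51.3% with TMM). In the FGF23 mutant group over AKI_mcherry it gave 4060 genes higher and 1035 lower (2199 and 2148 with TMM) and 2 members higher, and over NC 7829 higher and 2096 lower (4123 and 3912) and 5 members higher. It turned the sign of Ifit3 (0.0508) and Irf1 (0.138) in the FGF23 mutant group over AKI_mcherry and of Irf7 (0.16) and Gbp2 (0.319) over NC, none of which passed. These shifts follow from the scaling. The list medians that turned were those of receptors (0.112), JAK, STAT and IRF genes (0.185), ISG15 conjugation (0.0731) and antigen presentation (0.154) in the FGF23 mutant group over AKI_mcherry, and of JAK, STAT and IRF genes (0.29) and ISG15 conjugation (0.169) over NC. The GBP medians kept their sign in all 3 comparisons (-0.84, 0.839 and -0.188). With no filter, 0 members passed in the FGF23 mutant group over AKI_mcherry.

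Deviations from group means of same-numbered libraries correlated at -0.328 to 0.0834 in AKI_mcherry over NC, 0.081 to 0.201 in the FGF23 mutant group over AKI_mcherry and -0.182 to -0.0827 over NC. In the same order, 0 of 8, 4 of 6 and 0 of 6 libraries correlated best with their own number. Replicate numbers thus did not pair the libraries in the comparisons with NC. Whether they pair those of the injured groups was not settled by these values. With the replicate number as a block (for the FGF23 mutant group replicates 1 to 3 of each group, the libraries with a shared number), 4370 genes were higher and 4250 lower in AKI_mcherry over NC, 944 and 766 in the FGF23 mutant group over AKI_mcherry, and 2382 and 2333 over NC, where 0 members passed. The block turned the sign of Irf1 (0.0133) in the FGF23 mutant group over AKI_mcherry. On the lists in that comparison, it left 1 of 16 GBPs and GTPases higher and 0 lower (7 and 2 without it). Of the 36 type I interferon-stimulated genes it left 1 higher and 0 lower (5 and 2 without it). Of the 17 antigen presentation genes it left 0 either way (2 and 1 without it). Over NC, 1 of 6 receptor genes (4 without the block) and 2 of 16 sensors and adaptors (6 without it) were higher.

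Without 1 library, 1252 to 2088 genes were higher and 1158 to 2171 lower in the FGF23 mutant group over AKI_mcherry, with the fewest without FGF23 mutant replicate 1 and fewer by over 1.5 times also without replicate 5 (upward and downward) and replicate 2 (downward), and 0 to 1 members were higher. Over NC 0 to 1 members were lower, since Rsad2 passed downward without FGF23 mutant replicate 1 (adjusted p = 0.0151). Signs turned in some of these fits, where no value passed: Irf7 spanned -0.406 to 0.0805 in AKI_mcherry over NC. In the FGF23 mutant group over AKI_mcherry, Ifit3 spanned -0.294 to 0.0219, Irf1 -0.129 to 0.0427, Irf7 -0.078 to 0.238 and Oasl2 -0.0935 to 0.216. Over NC, Ifit3 spanned -0.00331 to 0.428, Irf7 -0.307 to 0.107 and Gbp2 -0.1 to 0.108. The cause of the other changes was not tested.

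The labels give neither construct nor animal identity, and the 4 interferon genes in the table had at most 12 counts in a library, too few to pass the filter. Members of 5 CPM or less, such as Isg15 and Usp18, rest on fewer counts than Ifit3 or Irf1.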
